A study of Notophthalmus viridescens with 18 samples.

Results

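Mmp3/10a, Mmp3/10b, Mmp9th and Adam10l are 4 metalloprotease transcripts of A1 cells, a myogenic limb cell line of the newt Notophthalmus viridescens, and they were followed here across all 6 groups of a bulk RNA-seq experiment. They are 4 of the 27395 transcripts in the deposited tables, where they carry the identifiers comp19400_c0_seq1 (Mmp3/10a), comp94697_c0_seq1 (Mmp3/10b), comp4145_c0_seq1 (Mmp9th) and comp132028_c0_seq1 (Adam10l). They were selected on their higher RNA level in senescent than in proliferating cells, as the study listed them, so their values in that comparison are given as a description with no test. The transcriptome was assembled without a genome, so no positions are given.

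Matrix metalloproteinases are zinc enzymes, made as inactive precursors, that cut the proteins around cells. In mammals, stromelysins (MMP3 and MMP10) cut proteoglycans, laminin and fibronectin and activate other MMPs, gelatinases such as MMP9 cut denatured collagen and basement membrane collagen, and ADAM10 is a membrane protease that releases the outer part of receptors and ligands, Notch among them. Tissue inhibitors of metalloproteinases (TIMPs) bind and block the active enzymes. MMPs are a known part of the mix that mammalian senescent cells secrete, and matrix breakdown accompanies the early phase of limb regeneration in salamanders.

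The experiment comprised 18 libraries in 6 groups of 3 and served to compare senescence, myotube formation and 2 ways of inducing myotube dedifferentiation. SEN cells were treated for 24 h with the DNA-damaging drug etoposide (20 µM) and the p53 stabiliser nutlin (1 µM) and then nutlin alone, in 10% FCS (fetal calf serum), and were collected on day 12. PRO cells received the DMSO vehicle in 10% FCS and were also collected on day 12. All myotubes formed over 5 days in 0.25% FCS and were collected on day 8, after 3 more days in 10% FCS (MT_10%), in 0.25% FCS medium that had been conditioned for 48 h by senescent cells (MT_0.25%_SEN_CM) or by proliferating cells (MT_0.25%_PRO_CM), or in fresh 0.25% FCS medium (MT_0.25%). All cells were wild type and of 1 line. Myotubes were enriched by size, passing a 100 µm filter and staying on a 30 µm filter by the labels, whereas SEN and PRO cells were not filtered, so that filtering, serum and age of the culture differ together between MT_0.25% and PRO. The sources do not say whether replicates are separate cultures, and p-values then measure only the spread between these libraries, which may be technical.

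Each library held between 20609828 and 62991718 estimated reads (median 43238896). Levels below are CPM (reads scaled to library size) after TMM scaling, which are comparable between libraries for 1 transcript. TPM (relative transcript abundance) are given as deposited, scaled for length by the authors' tool, and serve to compare transcripts. They did not follow reads over the deposited length. In SEN 1, Mmp3/10a had 8816.3 estimated reads, 175.5 TPM and 1885 bases, and Mmp9th had 137728 reads, 1188.5 TPM and 1987.9 bases. Comparisons of TPM between transcripts therefore rest on the tool's own length scaling, which was not tested. Markers followed the labels in that the 5 myotube transcripts (Myog, Ckma, Myh3.1, Myh3.3 and Symhc1.1) summed to 801 to 934 CPM in MT_10%, 556.8 to 607 in MT_0.25%_SEN_CM, 515 to 645 in MT_0.25%_PRO_CM, with 769 to 1115 in MT_0.25%, against 31.0 to 38.1 CPM in SEN and 50.3 to 66.6 CPM in PRO. Conversely, 17 transcripts of cycling cells summed to 73.9 to 82.0 CPM in SEN against 839.7 to 1000.4 CPM in PRO.

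SEN cells had the most Mmp9th RNA of all groups, with 2659, 1348 and 2175 CPM in SEN, against 753, 724 and 381 CPM in PRO. Mmp9th, the gelatinase of the 4, was also the most abundant of them by TPM, at 847 ± 343 TPM in SEN and 109.8 ± 41.8 TPM in PRO (SD, n = 3 each). It ranked 192nd and 947th among the 27395 transcripts by mean TPM in those groups. Every SEN library lay above every PRO library, and the fitted log2 fold change was 1.73 (SE 0.33). In the myotube groups Mmp9th had 243, 215 and 302 CPM in MT_10%, 51.1, 72.1 and 70.4 CPM in MT_0.25%_SEN_CM, 38.1, 76.0 and 48.3 CPM in MT_0.25%_PRO_CM, as well as 31.5, 68.1 and 55.9 CPM in MT_0.25%. The 3 libraries of MT_10% thus stood apart from the other 9 myotube libraries, which overlapped. The order of the means was SEN, PRO, MT_10%, MT_0.25%_SEN_CM, MT_0.25%_PRO_CM, MT_0.25%, and the last 3 groups overlapped. On the TPM scale MT_10%, at 87.6, 87.1 and 125 TPM, also overlapped PRO, at 149, 114 and 65.8 TPM.

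Mmp3/10a, a stromelysin, followed a similar order with wider steps. It had 170.2, 108 and 125 CPM in SEN, against 18.9, 24.6 and 14.1 CPM in PRO, a fitted log2 fold change of 2.81 (SE 0.28). Among myotubes it had 4.90, 3.397 and 4.28 CPM in MT_10%, 0.991, 2.16 and 0.799 CPM in MT_0.25%_SEN_CM, 0.643, 0.744 and 0.538 CPM in MT_0.25%_PRO_CM, as well as 0.390, 0.578 and 0.523 CPM in MT_0.25%. From SEN down to MT_0.25%_PRO_CM each group in this order lay wholly above the next, and only MT_0.25%_PRO_CM and MT_0.25% overlapped. The low myotube values rest on few reads, between 14.8 and 89.2 estimated reads per library in the 9 myotube libraries kept in 0.25% FCS. From the lowest to the highest library the CPM of Mmp3/10a spanned 436-fold, against 84.4-fold for Mmp9th.

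Mmp3/10b, the other stromelysin, had its highest levels in myotubes. Its levels were 17.6, 19.8 and 14.1 CPM in MT_10%, 8.06, 8.89 and 7.65 CPM in MT_0.25%_SEN_CM, 6.10, 7.79 and 9.58 CPM in MT_0.25%_PRO_CM, as well as 15.3, 11.2 and 14.1 CPM in MT_0.25%. SEN had 4.98, 3.28 and 4.32 CPM, against 1.43, 1.03 and 1.47 CPM in PRO. SEN thus lay above PRO (log2 fold change 1.67, SE 0.24), and in CPM both lay below all 12 myotube libraries. By mean CPM, MT_10% came first, then MT_0.25%, the senescent and the proliferating conditioned media, SEN and PRO. MT_10% and MT_0.25% overlapped, as did the 2 groups in conditioned medium, and all other neighbours were apart. On the TPM scale SEN, at 6.91, 3.46 and 5.06 TPM, was not apart from the myotubes in conditioned medium. It overlapped MT_0.25%_SEN_CM (4.85, 5.93 and 6.57 TPM) and MT_0.25%_PRO_CM (5.59, 8.08 and 7.68 TPM). The deposited length of Mmp3/10b was 367 to 424 bases, against 1885 bases for Mmp3/10a.

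Adam10l, which was named for its likeness to ADAM10, was close to the limit of detection outside senescent cells. It had 47.9, 28.0 and 52.2 estimated reads in SEN (0.927, 0.734 and 0.932 CPM), against 0, 1 and 1 in PRO. Myotubes had 1, 8 and 2.06 in MT_10%, 5, 1 and 4 in MT_0.25%_SEN_CM, 0, 0 and 1 in MT_0.25%_PRO_CM, with 3, 8 and 3 in MT_0.25%. No library outside SEN reached 10 reads and all other groups overlapped their neighbours in the order of means, so Adam10l entered the fit only through SEN, and for the other groups its reads and their ratios are given without a test. The 128 rounded reads of SEN against 2 of PRO correspond to a 36.9-fold ratio after scaling, a description only since this comparison chose the transcript. The exact 95% intervals given below for other ratios of Adam10l reads cover counting error only and are not read as tests. Even in SEN the level of Adam10l was 0.552 ± 0.113 TPM (SD, n = 3), whereas Mmp3/10a had 127 ± 43.2 TPM and Mmp3/10b had 5.14 ± 1.72 TPM.

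**Figure D1:**
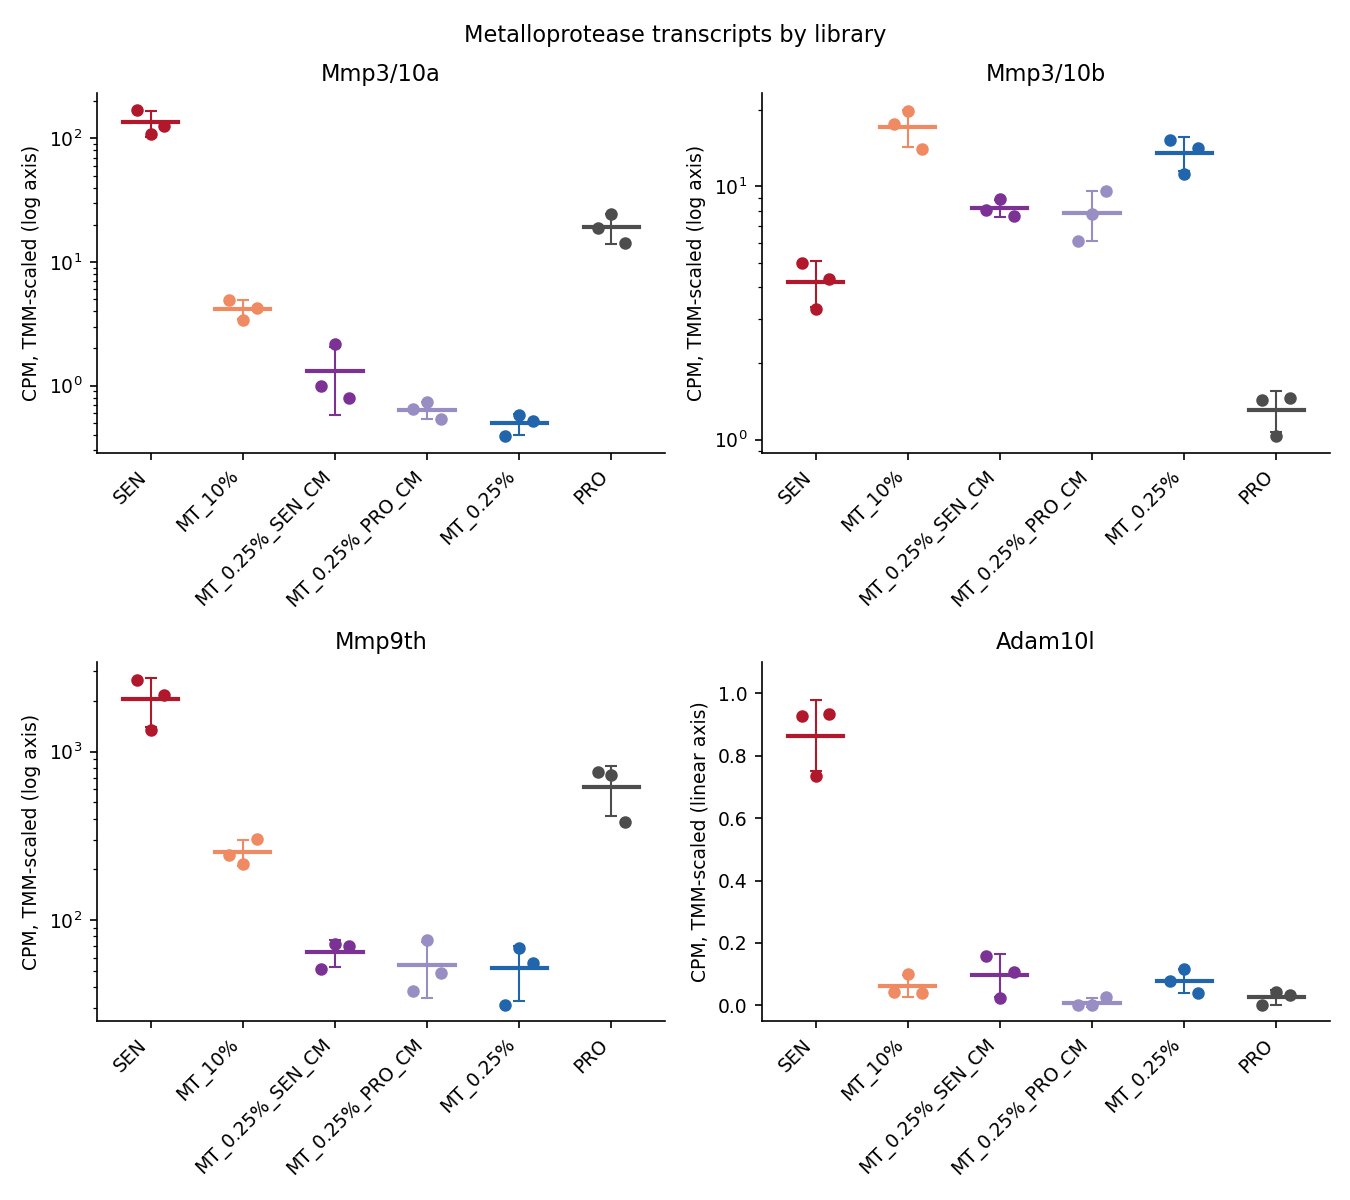
CPM after TMM scaling in each of the 18 libraries (points) with the group mean (line) and SD (error bar, n = 3), on a log axis for Mmp3/10a, Mmp3/10b and Mmp9th and on a linear axis for Adam10l. Mmp3/10a and Mmp9th were highest in SEN and were higher in MT_10% than in the other myotubes. In CPM, Mmp3/10b was higher in all 12 myotube libraries than in SEN and PRO. Adam10l was at 0.734 to 0.932 CPM in SEN and at or below 0.160 CPM elsewhere.

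In SEN over PRO, 50.9% of the 23107 tested transcripts were called at an adjusted p under 0.05 (28.2% were called higher), which is given for scale only since this comparison chose the 4 transcripts.

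Ratios of 2 transcripts within a library do not depend on the scaling between libraries, and they placed the stromelysins in opposite order in mononucleate cells and myotubes. The TPM of Mmp3/10a was 25.4, 26.7 and 22.2 times that of Mmp3/10b in SEN, and 10.7, 18.3 and 7.74 times in PRO. In myotubes the same ratio was 0.236, 0.143 and 0.247 in MT_10%, 0.0984, 0.202 and 0.0844 in MT_0.25%_SEN_CM, 0.0831, 0.0781 and 0.0451 in MT_0.25%_PRO_CM. It was lowest in MT_0.25%, at 0.0206, 0.0409 and 0.0299. Mmp3/10a was therefore the more abundant stromelysin RNA by TPM in all 6 mononucleate libraries, and Mmp3/10b in all 12 myotube libraries. Mmp9th exceeded Mmp3/10a in every library, with TPM ratios of 5.43 to 7.55 in SEN, 22.6 to 31.0 in MT_10%, 15.6 to 41.4 in MT_0.25%_SEN_CM, 32.0 to 50.4 in MT_0.25%_PRO_CM, 44.9 to 57.7 in MT_0.25% and 11.8 to 17.3 in PRO.

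The RNA of the inhibitor Timp1.1 was set against that of Mmp9th in the same way. The TPM of Mmp9th was 0.126 to 0.190 times that of Timp1.1 in SEN, 0.0442 to 0.0550 times in MT_10%, 0.104 to 0.114 times in MT_0.25%_SEN_CM, 0.249 to 0.340 times in MT_0.25%_PRO_CM, 0.126 to 0.189 times in MT_0.25% and 0.0118 to 0.0156 times in PRO. Timp1.1 RNA thus exceeded Mmp9th RNA by TPM in all 18 libraries, by least in MT_0.25%_PRO_CM and by most in PRO. These are RNA ratios, and neither protein nor enzyme activity was measured here.

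**Figure D2:**
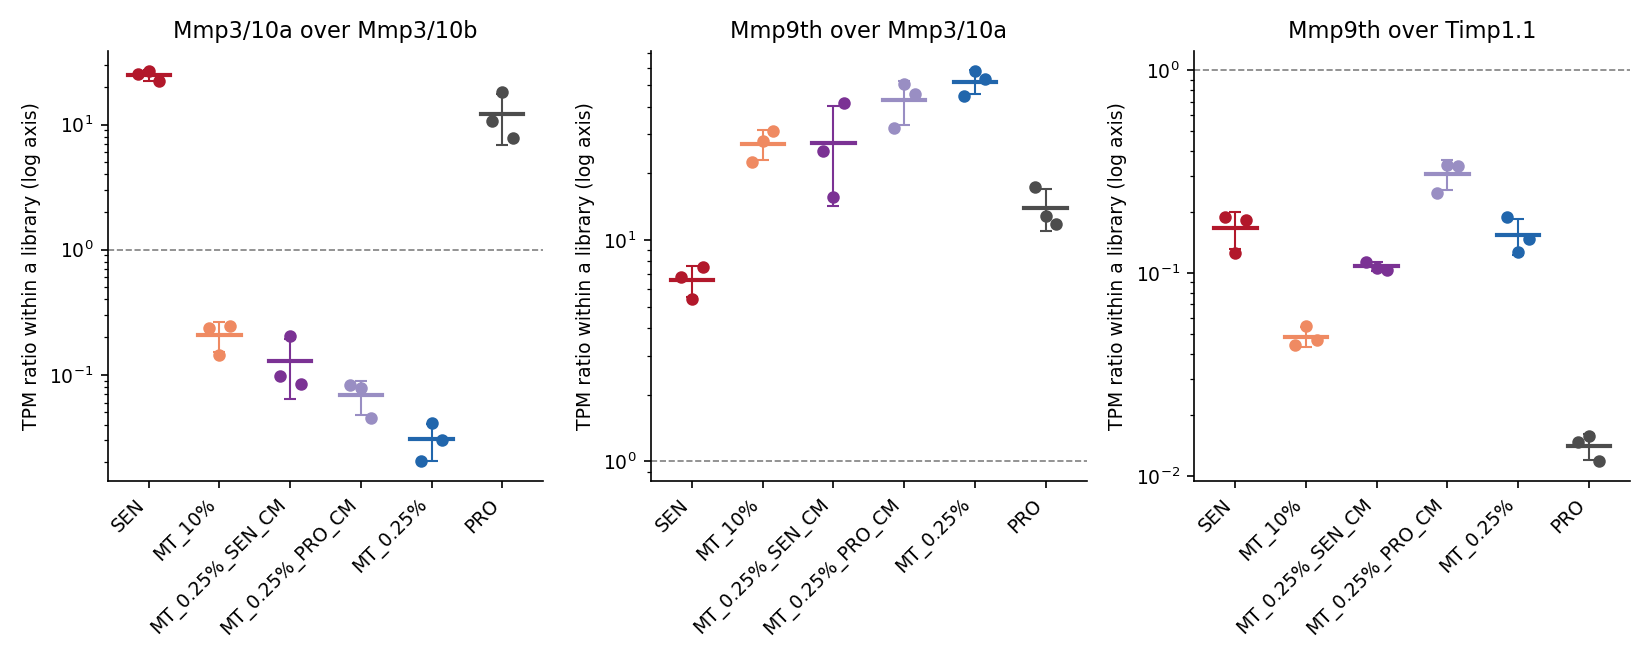
Ratios of TPM within each library (points, log axis) for Mmp3/10a over Mmp3/10b, Mmp9th over Mmp3/10a and Mmp9th over Timp1.1, with the group mean (line) and SD (error bar, n = 3), and a dashed line at a ratio of 1. Mmp3/10a over Mmp3/10b lay above 1 in SEN and PRO and below 1 in all myotube groups, and Mmp9th over Timp1.1 was lowest in PRO.

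To determine how the proteases differ between formed myotubes and the proliferating cells of the line they come from, MT_0.25% was compared with PRO. Mmp3/10a fell to 0.497 ± 0.0965 CPM in MT_0.25%, against 19.2 ± 5.22 CPM in PRO (SD, n = 3 each), with a log2 fold change of -5.23 (SE 0.33) and an edgeR quasi-likelihood adjusted p of 3.96e-11. Mmp9th fell to 51.8 ± 18.6 CPM, against 619 ± 207 CPM in PRO (log2 fold change -3.58, SE 0.35, adjusted p = 2.00e-08). Mmp3/10b moved the other way, with 13.6 ± 2.09 CPM in MT_0.25% against 1.31 ± 0.242 CPM in PRO (log2 fold change 3.36, SE 0.24, adjusted p = 2.07e-10). On the TPM scale, which has no TMM scaling, the log2 differences were -2.51 for Mmp3/10a and -2.01 for Mmp9th on log2(TPM + 1). On log2(TPM + 0.1) they were -3.70 and -2.05. These falls were all called by limma, whereas Mmp3/10b had 4.45 on log2(TPM + 0.1). The median over all tested transcripts was 0.76 and 1.37 on these 2 scales, against 0.20 in edgeR. Relative to that median Mmp3/10a stood at -3.27 and -5.07 (-5.44 in edgeR) and Mmp9th at -2.76 and -3.42 (-3.78 in edgeR). Mmp3/10b stood at 3.09 on log2(TPM + 0.1), against 3.15 in edgeR. Adam10l had 14 rounded reads in MT_0.25% and 2 in PRO, a ratio of 3.16 with an exact 95% interval of 0.726 to 28.6. Groups did not overlap for the 3 MMPs, and the share of all transcripts without overlap was not computed. In this comparison 69.7% of all tested transcripts were called (38.0% higher and 31.7% lower), and all 3 MMPs were among them. In bulk RNA a smaller number of expressing cells and less RNA per cell cannot be told apart.

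To determine whether serum given to formed myotubes changes the proteases, MT_10% was compared with MT_0.25%. Mmp3/10a rose to 4.19 ± 0.753 CPM in MT_10%, against 0.497 ± 0.0965 CPM in MT_0.25% (SD, n = 3 each), an 8.15-fold increase (log2 fold change 3.03, SE 0.32, adjusted p = 1.05e-06). Mmp9th rose to 253 ± 44.7 CPM in MT_10%, against 51.8 ± 18.6 CPM in MT_0.25%, a 4.89-fold increase (log2 fold change 2.29, SE 0.33, adjusted p = 3.98e-05). Both were higher in every MT_10% library than in any MT_0.25% library, and both calls held under every alternative processing, although the log2 difference of Mmp3/10a was 1.63 on log2(TPM + 1) and 2.67 on log2(TPM + 0.1). Mmp3/10b, with 17.2 ± 2.88 CPM in MT_10% and 13.6 ± 2.09 CPM in MT_0.25%, was not called (log2 fold change 0.34, SE 0.21, adjusted p = 0.191) and its libraries overlapped. Adam10l had 11 rounded reads in MT_10% and 14 in MT_0.25%, a ratio of 0.964 with an exact 95% interval of 0.396 to 2.29. The 2 of 3 MMPs called, both higher, stand beside 40.0% of all tested transcripts called and 20.0% called higher.

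With serum, the levels of Mmp3/10a and Mmp9th reached 21.8% and 40.9% of their PRO means in MT_10%, against 2.59% and 8.36% in MT_0.25%. RNA chosen as high in PRO and low in MT_0.25% moved with them. For 13 transcripts (Timp1.1 among them) the PRO mean exceeded the MT_0.25% mean by 50-fold or more. They were thus chosen as low in these MT_0.25% libraries. Their summed level was 2766 to 4523 CPM in MT_10%, against 151 to 439 CPM in MT_0.25% and 25959 to 39830 CPM in PRO. Timp1.1 alone averaged 2755 CPM in MT_10%, 210 CPM in MT_0.25% and 22118 CPM in PRO, and thus made up most of these sums. The median level of the 13 was 9.33% of PRO in MT_10% and 0.948% in MT_0.25%. In SEN it was 26.8% of PRO (range over the 13, 10.3% to 96.1%), so the list does not mark proliferating cells alone. In MT_10%, 12 of the 13 stood at a lower share of PRO than Mmp3/10a and 12 stood lower than Mmp9th, and 1 of the 13 was at 0 in all MT_10% libraries. In MT_0.25%, all 13 already stood below both proteases, which the choice of the list fixed. The counts in MT_10% carry that offset. A wider list of 96 transcripts with a 20-fold or larger excess in PRO had a median of 12.8% of PRO in MT_10% and 3.62% in MT_0.25%. In MT_10%, 74 of the 96 stood below Mmp3/10a and 87 below Mmp9th. In MT_0.25%, 21 stood below Mmp3/10a and all 96 below Mmp9th, the latter again fixed by the choice of the list. All 17 transcripts of cycling cells were called higher in MT_10% than in MT_0.25%, with sums of 623 to 656 CPM in MT_10% against 94.9 to 187 CPM in MT_0.25% and none at 0. In MT_10%, all 17 stood at a higher share of PRO than Mmp3/10a and than Mmp9th, unlike most of the other 2 lists, and all 17 did so in MT_0.25% as well. The part of mononucleate cells in the rise of the 2 proteases was not tested.

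**Figure D3:**
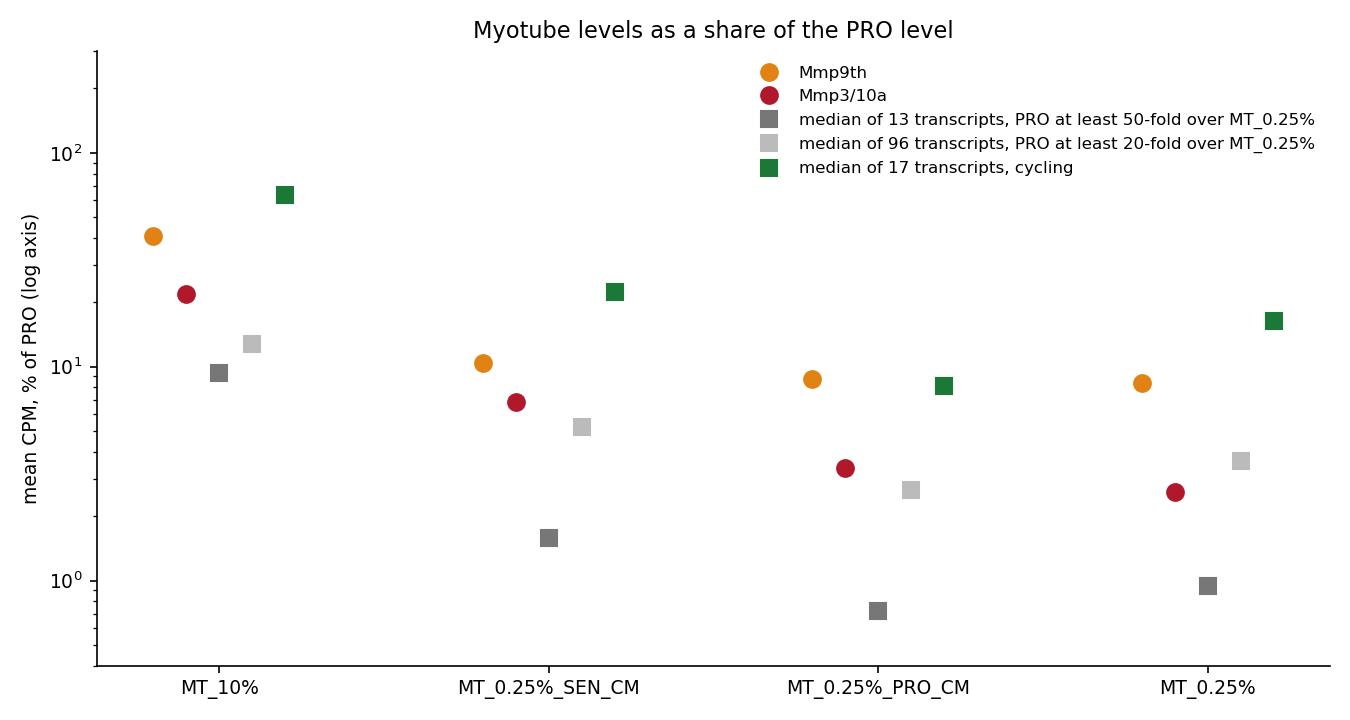
Mean CPM in each myotube group as a percentage of the PRO mean (log axis) for Mmp9th and Mmp3/10a (circles), with the median over the 13 and 96 transcripts with a 50-fold and a 20-fold excess in PRO, and over 17 transcripts of cycling cells (squares). In MT_10% Mmp9th stood at 40.9% and Mmp3/10a at 21.8% of PRO, between the 20-fold list (12.8%) and the cycling transcripts (63.6%).

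To determine whether the proteases of myotubes differ after medium conditioned by senescent cells, MT_0.25%_SEN_CM was compared with fresh medium and with medium conditioned by proliferating cells. Against fresh medium, Mmp3/10a was called higher, at 1.32 ± 0.738 CPM in MT_0.25%_SEN_CM and 0.497 ± 0.0965 CPM in MT_0.25% (SD, n = 3 each; log2 fold change 1.39, SE 0.33, adjusted p = 0.00360). Its values in the 3 libraries were uneven, since replicate 2 had 2.16 CPM and the other two had 0.991 and 0.799 CPM, and without replicate 2 the log2 fold change was 0.81 and the adjusted p 0.0657. On the TPM scale, the 3 libraries had 0.477, 1.2002 and 0.555 TPM in MT_0.25%_SEN_CM against 0.304, 0.598 and 0.627 TPM in MT_0.25%, which overlapped, and no call was made (adjusted p = 0.457 by limma on log2(TPM + 1)). Mmp3/10b was called lower, at 8.20 ± 0.634 CPM in MT_0.25%_SEN_CM and 13.6 ± 2.09 CPM in MT_0.25% (log2 fold change -0.72, SE 0.21, adjusted p = 0.0108), and its libraries did not overlap. Its log2 difference was -1.38 on log2(TPM + 1) and -1.51 on log2(TPM + 0.1), where the median over all tested transcripts was -0.55 and -0.89. Relative to that median Mmp3/10b stood at -0.83 and -0.63, against -0.60 in edgeR. Mmp9th, with 64.6 ± 11.7 CPM in MT_0.25%_SEN_CM and 51.8 ± 18.6 CPM in MT_0.25%, was not called (log2 fold change 0.32, SE 0.32, adjusted p = 0.441). On log2(TPM + 1) its log2 difference had the opposite sign (-0.51), but relative to the median there it stood at 0.04, against 0.44 in edgeR. Deviations from the group means correlated at 0.134 to 0.607 between same-numbered libraries of these 2 groups, and at up to 0.291 between differently numbered ones. An alternative chosen after seeing the data took the replicate number as a block in an edgeR fit of the 2 groups alone. In it Mmp9th was called higher (log2 fold change 0.36, SE 0.13, adjusted p = 0.0285) and the other MMP calls did not change. The 2 of 3 MMPs called without the block stand beside 37.7% of all tested transcripts called (18.6% higher and 19.2% lower).

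Of the 13 transcripts with a 50-fold excess in PRO, which were chosen as low in the same MT_0.25% libraries, 8 were called higher and none lower in this comparison. They summed to 386 to 581 CPM in MT_0.25%_SEN_CM against 151 to 439 CPM in MT_0.25%, ranges that overlapped. Most of each sum was Timp1.1, which averaged 330 CPM in MT_0.25%_SEN_CM and 210 CPM in MT_0.25%. Of the 13, 0 and 2 were at 0 in all libraries of the 2 groups. The 5 myotube markers summed to 556.8 to 607 CPM in MT_0.25%_SEN_CM against 769 to 1115 CPM in MT_0.25%, and 3 of the 5 were called lower, whereas 8 of the 17 cycling transcripts were called higher and none lower. The part of these shifts in the values of the 3 MMPs was not tested.

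Between the 2 conditioned media, edgeR called 0 of the 3 MMPs, where 8.34% of all tested transcripts were called (3.00% higher and 5.34% lower), and 1 of the 3 (Mmp3/10a) had an unadjusted p under 0.05. Mmp3/10a had 1.32 ± 0.738 CPM in MT_0.25%_SEN_CM and 0.642 ± 0.103 CPM in MT_0.25%_PRO_CM (SD, n = 3 each, log2 fold change 1.05, SE 0.34, adjusted p = 0.0611). Its libraries did not overlap in CPM. DESeq2 called it at an adjusted p of 0.0307, and edgeR with only the 2 groups did not (adjusted p = 0.162). In TPM its libraries overlapped, at 0.477, 1.2002 and 0.555 against 0.465, 0.631 and 0.346. By limma it was not called (adjusted p = 0.572 on log2(TPM + 1) and 0.390 on log2(TPM + 0.1)). Without replicate 2 of MT_0.25%_SEN_CM its log2 fold change was 0.47. Mmp9th (log2 fold change 0.25, SE 0.32, adjusted p = 0.650) and Mmp3/10b (0.07, SE 0.21, adjusted p = 0.869) overlapped between the media, and on the TPM scale both log2 differences were below 0. Relative to the median over all tested transcripts, Mmp9th stood at 0.03 and Mmp3/10b at -0.05 on log2(TPM + 1). On log2(TPM + 0.1) they stood at 0.15 and 0.04. Adam10l had 10 rounded reads in MT_0.25%_SEN_CM and 1 in MT_0.25%_PRO_CM, a ratio of 10.8 with an exact 95% interval of 1.53 to 467. The interval does not include the spread between libraries and is not read as a test. Of the 13 transcripts with a 50-fold excess in PRO, 9 were called higher and none lower with senescent medium. Of the 17 cycling transcripts 11 were called higher and none lower, and the part of both lists in these values was not tested.

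Medium conditioned by proliferating cells, compared with fresh medium, gave a lower level of Mmp3/10b. It had 7.82 ± 1.74 CPM in MT_0.25%_PRO_CM and 13.6 ± 2.09 CPM in MT_0.25% (SD, n = 3 each; log2 fold change -0.79, SE 0.21, adjusted p = 0.00919), with no overlap, but the call was lost without replicate 1 of MT_0.25%_PRO_CM (log2 fold change -0.64, adjusted p = 0.0646). Mmp3/10a (log2 fold change 0.34, SE 0.36, adjusted p = 0.529) and Mmp9th (0.06, SE 0.32, adjusted p = 0.908) were not called, and both had the opposite sign on the TPM scale. Relative to the median over all tested transcripts, Mmp3/10a stood at 0.28 and Mmp9th at -0.04 on log2(TPM + 1). On log2(TPM + 0.1) they stood at 0.42 and 0.11. Adam10l had 1 rounded read in MT_0.25%_PRO_CM, against 14 in MT_0.25%, a ratio of 0.112 with an exact 95% interval of 0.00266 to 0.739. The interval again covers counting error only and is not read as a test. Of the 5 myotube markers 3 were called lower in the same comparison, as were 11 of the 17 cycling transcripts (1 was called higher), and their part in the level of Mmp3/10b was not tested. The 1 of 3 MMPs called stands beside 24.5% of all tested transcripts called and 12.5% called lower. The MT_0.25% libraries enter 4 of the 6 tested comparisons, which are therefore not independent.

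To set the 2 inducers of dedifferentiation against each other, MT_10% was compared with MT_0.25%_SEN_CM. All 3 MMPs were higher with serum than with senescent medium, without overlap of libraries, and the share of all transcripts without overlap was not computed. Against fresh medium, Mmp3/10b was not called with serum (log2 fold change 0.34) and was called lower with senescent medium (-0.72). Adam10l had 11 rounded reads in MT_10% and 10 in MT_0.25%_SEN_CM. Mmp9th had 253 ± 44.7 CPM in MT_10% and 64.6 ± 11.7 CPM in MT_0.25%_SEN_CM (SD, n = 3 each; log2 fold change 1.97, SE 0.33, adjusted p = 8.24e-05). Mmp3/10a had 4.19 ± 0.753 CPM in MT_10% and 1.32 ± 0.738 CPM in MT_0.25%_SEN_CM (log2 fold change 1.64, SE 0.30, adjusted p = 0.000212), and Mmp3/10b had 17.2 ± 2.88 CPM in MT_10% and 8.20 ± 0.634 CPM in MT_0.25%_SEN_CM (log2 fold change 1.07, SE 0.21, adjusted p = 0.000378). The 3 of 3 MMPs called, all higher, stand beside 42.8% of all tested transcripts called (23.7% higher and 19.1% lower). Of the 13 transcripts with a 50-fold excess in PRO, 6 were called higher and none lower in this comparison. Of the 17 cycling transcripts 16 were called higher (median log2 fold change 1.62 over the 17), and so were 3 of the 5 myotube markers (median 1.16 over the 5), and the part of these markers in the comparison was not tested.

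**Figure D4:**
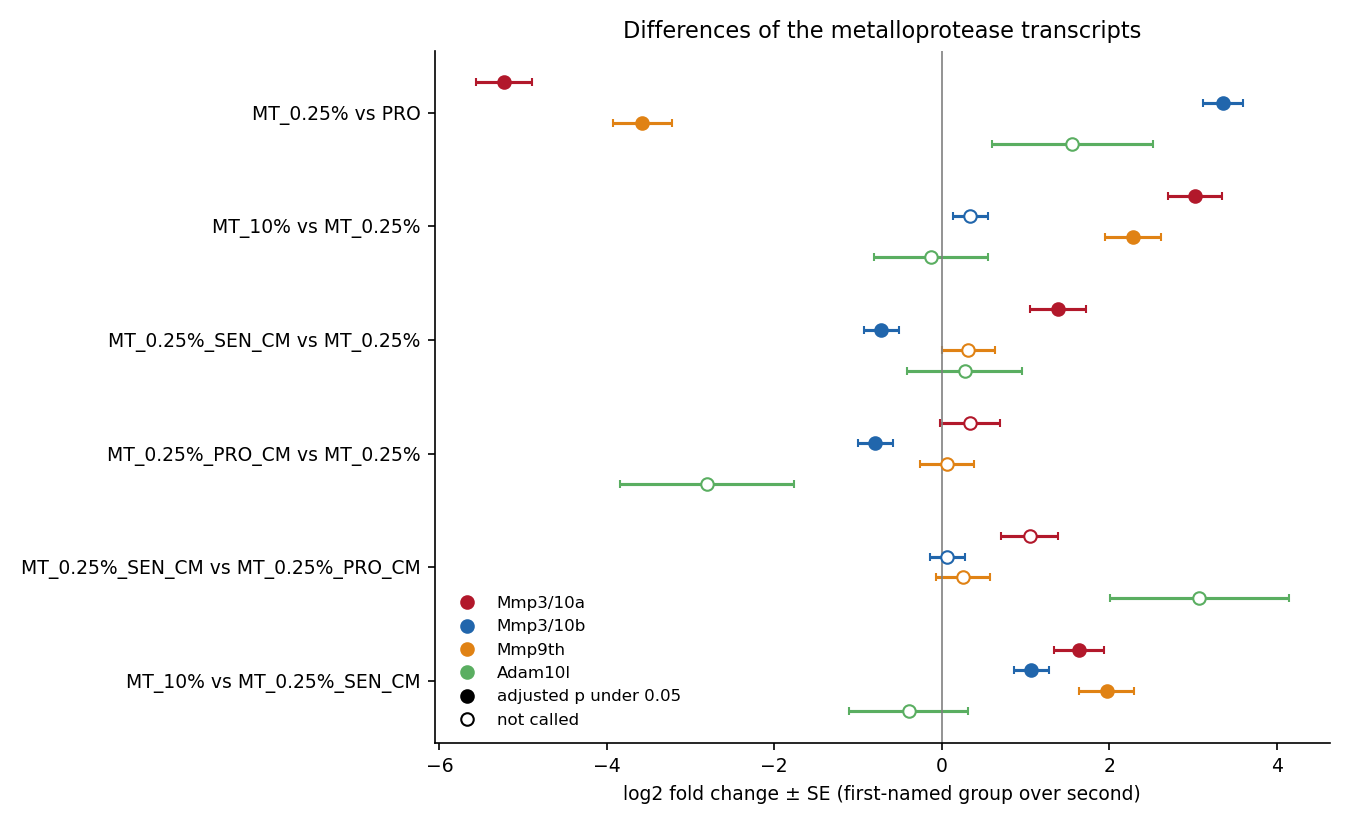
Fitted log2 fold change of the first-named group over the second, with its SE (bar), for the 4 transcripts in the 6 tested comparisons, where filled points passed an adjusted p of 0.05. Mmp3/10a and Mmp9th were called lower in MT_0.25% than in PRO and higher in MT_10% than in MT_0.25%, Mmp3/10b was called lower in both conditioned media than in fresh medium, and for Adam10l, which had 10 or more reads in SEN libraries only, no test is read.

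The other proteases, inhibitors and matrix proteins named in the study's tables gave a wider frame, with 23 of 24 listed names matched to a transcript and all 23 tested. The study chose these names on the same libraries, most of them for a rise in SEN or in MT_0.25%, so their directions are not independent evidence. In MT_0.25% over PRO, 16 of the 23 were called higher and 5 lower, with a median log2 fold change of 1.70 against 0.20 over all tested transcripts, of which 69.7% were called (38.0% higher and 31.7% lower). Of 7 other metalloproteases, 6 were called higher and none lower, led by Adam13 (log2 fold change 7.30, SE 0.36), Adamts20 (3.12, SE 0.25) and Phex (2.85, SE 0.68), of which Adam13 and Adamts20 had been chosen for this rise. Mmp3/10b was thus called in the direction of most of this list, and Mmp3/10a and Mmp9th in the direction of the inhibitor Timp1.1 (log2 fold change -6.72, SE 0.41) and of F11, coagulation factor XI (-4.42, SE 0.38). Col28a1b, a collagen chosen for its rise in MT_0.25%, had a log2 fold change of 4.19 (SE 0.22). Timp1.2 was called lower (-1.04, SE 0.26) but higher on the TPM scale (0.68), and Timp1.3 was not called (-0.86, SE 0.48, adjusted p = 0.115).

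The list was then set beside the serum response. In MT_10% over MT_0.25%, 5 of 23 were called higher and 8 lower, with a median log2 fold change of -0.37 against 0.03 over all tested transcripts (40.0% called, 20.0% in each direction), and 5 of the 7 other metalloproteases were called lower and none higher. Timp1.1 (log2 fold change 3.72, SE 0.35), F11 (2.51, SE 0.36) and the cartilage matrix protein Comp (1.90, SE 0.32) were called higher, as were Mmp3/10a and Mmp9th. Adamts15a (-1.69, SE 0.24), the laminin chain Lama3 (-1.63, SE 0.37) and Adam13 (-1.55, SE 0.22) were called lower. Timp1.2 (-0.39, SE 0.27, adjusted p = 0.275) and Timp1.3 (-0.05, SE 0.48, adjusted p = 0.947) were not called.

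In MT_0.25%_SEN_CM over MT_0.25%, 3 of the 23 were called higher, 9 lower and 11 not at all, beside 18.6% of all tested transcripts called higher and 19.2% lower (median log2 fold change -0.72, against -0.13 over all tested transcripts). A fit of these 2 groups alone with the replicate block called 6 higher and 14 lower, and the same fit without the block 4 and 10. With the block 12532 of all transcripts were called there, against 8720 in the fit of all 18 libraries without a block. In MT_0.25%_PRO_CM over MT_0.25%, 2 were called higher, 9 lower and 12 not at all, beside 12.0% called higher and 12.5% lower (median -0.24, against -0.04). Timp1.2 had the largest change of the list in both, with a log2 fold change of 5.16 (SE 0.24) in MT_0.25%_SEN_CM and 4.48 (SE 0.24) in MT_0.25%_PRO_CM, followed by F11 (3.06, SE 0.36, and 2.11, SE 0.36). Timp1.1 was not called with senescent medium (0.65, SE 0.32, adjusted p = 0.108). With proliferating medium it was called lower (-1.08, SE 0.32, adjusted p = 0.0192), although its libraries overlapped. That call was lost without replicate 2 (-0.70, adjusted p = 0.154) or 3 (adjusted p = 0.0526) of MT_0.25%. It was also lost without replicate 1 (adjusted p = 0.0736) or 3 (adjusted p = 0.0917) of MT_0.25%_PRO_CM. Phex (-1.88, SE 0.57) and Adamts20 (-1.68, SE 0.22), Col18a1 (-1.54, SE 0.39) and Adamts15a (-1.32, SE 0.24) were called lower with senescent medium, and Comp (-2.02, SE 0.35), Phex (-1.86, SE 0.57) and Adamts20 (-1.47, SE 0.22) with proliferating medium. Between the media, where 3.00% of all tested transcripts were called higher and 5.34% lower, 3 were called higher in MT_0.25%_SEN_CM, namely Timp1.1 (1.73, SE 0.33), Comp (1.299, SE 0.35) and Timp1.2 (0.68, SE 0.20), and 2 lower, namely F8, coagulation factor VIII (-1.23, SE 0.38), and Mmel1 (-1.15, SE 0.28), and limma on log2(TPM + 1) called none of these 5. Of them, only Timp1.1 stayed called whichever library was left out, and F8 had an adjusted p of 0.210 without replicate 2 of MT_0.25%_SEN_CM, 0.0534 with RLE scaling, 0.0519 without a filter and 0.0542 with the replicate block over all libraries. Against fresh medium, the calls of Phex in senescent medium (-1.37 and adjusted p = 0.0632 without replicate 1 of MT_0.25%_SEN_CM) and in proliferating medium (adjusted p = 0.107 without replicate 3 of MT_0.25%_PRO_CM) also rested on single libraries. In MT_10% over MT_0.25%_SEN_CM, 7 of 23 were called higher and 4 lower (42.8% of all tested transcripts were called, 23.7% higher and 19.1% lower), from Timp1.1 (3.06, SE 0.34), Comp (2.62, SE 0.33), Phex (1.80, SE 0.58) and tPA, the tissue plasminogen activator (1.63, SE 0.24), to Timp1.2 (-5.55, SE 0.26), where Phex lost its call without replicate 1 of MT_0.25%_SEN_CM (adjusted p = 0.0662). Timp1.3 was not called in any of these 4 comparisons.

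**Figure D5:**
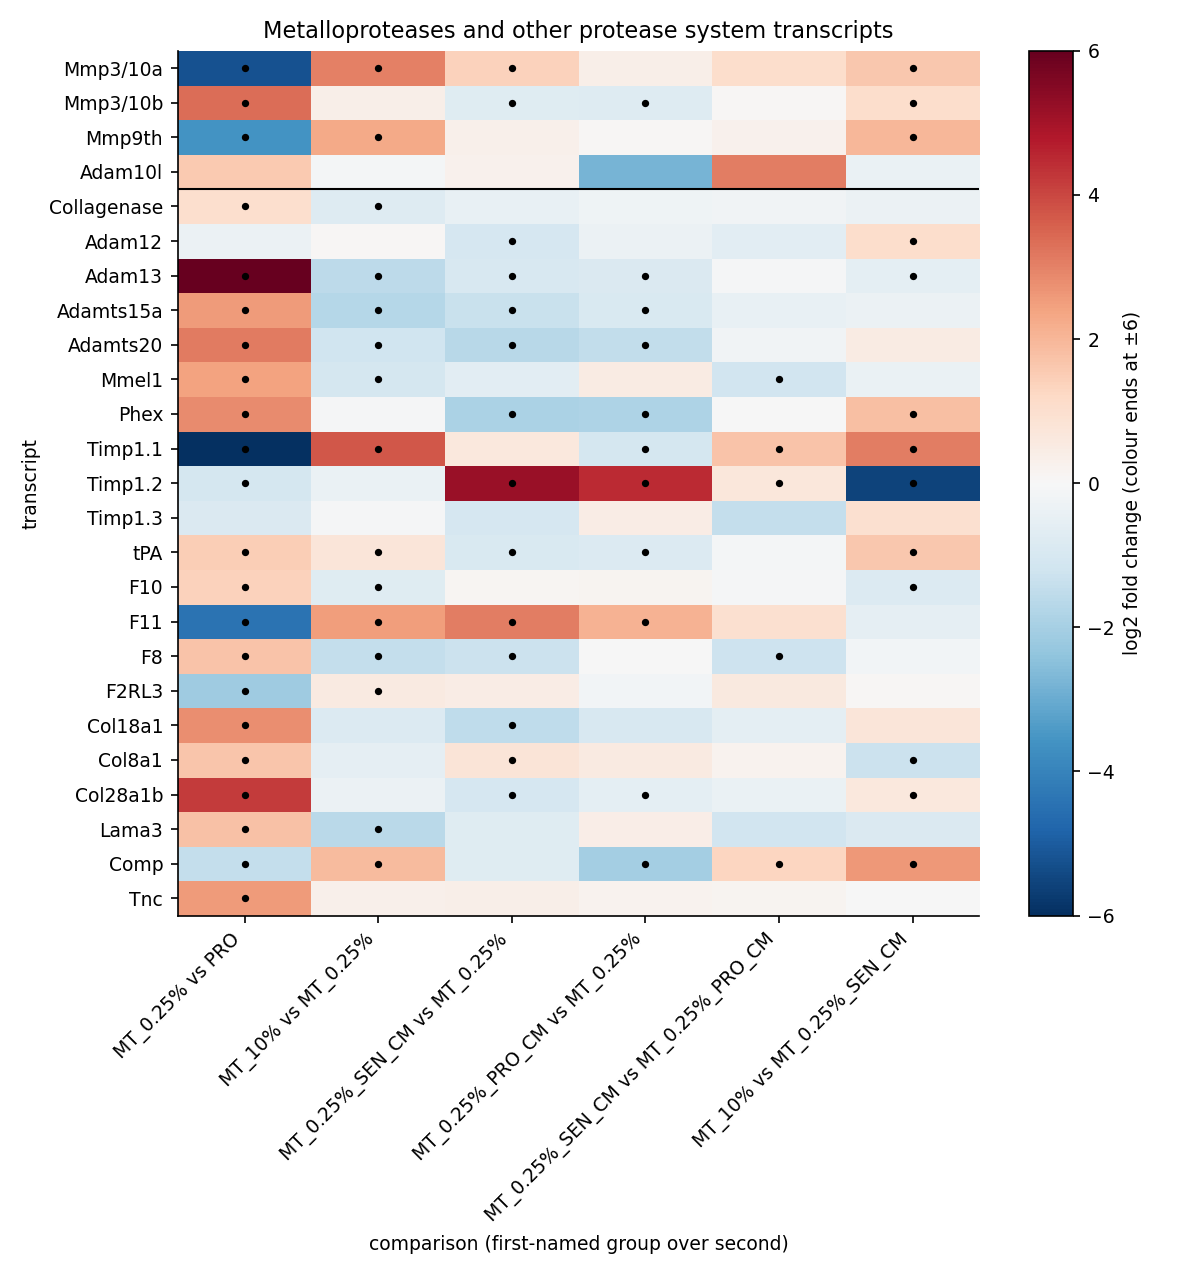
Log2 fold change (colour, ends at ±6) of the 4 metalloproteases (above the line) and 21 of the 23 other protease, inhibitor and matrix transcripts in the 6 tested comparisons, with a dot where the adjusted p was under 0.05. Adam13 (7.30) and Timp1.1 (-6.72) in MT_0.25% over PRO lie beyond the colour ends, and Timp1.2 stands out in both conditioned media.

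Over all 18 libraries the log2(CPM + 1) levels of Mmp3/10a and Mmp9th had a Pearson correlation of 0.97 (Spearman 0.95), Mmp3/10a and Mmp3/10b one of -0.60 (Spearman -0.60), and Mmp9th and Mmp3/10b one of -0.56 (Spearman -0.55). These values describe 18 points that fall into 6 groups and share library depth and scaling, and no p is given. The 3 transcripts with the pattern most like Mmp3/10a were comp27988_c0_seq4 (an uncharacterised protein, 0.98), rcomp40187_c0_seq1 (no name, 0.98) and the cytokine interleukin-18 (comp47215_c0_seq1, 0.98). For Mmp3/10b they were comp3795763_c0_seq1 (no name, 0.98), the transcription factor Tbx15 (comp57114_c0_seq2, 0.98) and desmin, the muscle intermediate filament (comp654_c0_seq1, 0.97). For Mmp9th they were comp26923_c0_seq3, comp30699_c0_seq4 and comp11822_c0_seq8, at 0.98 each and without a name. For Adam10l they were a procollagen-proline dioxygenase entry (comp68037_c0_seq2), which belongs to collagen synthesis, and 2 uncharacterised proteins (comp51661_c0_seq1 and comp34061_c0_seq4), all at 0.97. Their Spearman values with Adam10l were 0.57, 0.50 and 0.81. Since Adam10l was chosen for SEN and reached 10 reads only there, its Pearson values rest mainly on SEN against all other groups. With Spearman correlation 0 of these 3 remained among the first 3 for Mmp3/10a, Mmp3/10b and Mmp9th, and 1 remained for Adam10l, so the neighbours depend on the measure.

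The deposited length of Mmp9th, which the authors' tool gives per library, was 1985 to 1995 bases in SEN, MT_10% and PRO, 1886 to 1911 in MT_0.25%_SEN_CM, 1684 to 1798 in MT_0.25%_PRO_CM, with 1663 to 1771 in MT_0.25%. The length was thus shorter in all 9 myotube libraries kept in 0.25% FCS than in the other 9 libraries. A varying length was common, since 25.1% of all 27395 entries had 1 length in every library. Mmp3/10a and Adam10l had 1 length each in all libraries, 1885 and 2622 bases. A change in length can alter TPM and leaves CPM as it is, and its part in the TPM values of Mmp9th was not tested.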

How the data were processed

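The 18 RNA-seq libraries of A1 cells were grouped by their sample labels, with 1 deposited table per library. The authors trimmed reads with Trim Galore and quantified each library against a de novo transcriptome with Sailfish (versions not given in the sources used here). As for units, the deposited estimated counts are reads assigned to each transcript, without normalization and with fractions of reads. The authors' TPM values, deposited beside them, are scaled for length and depth. Where near-identical transcripts share reads, Sailfish splits them, so the values of the 2 stromelysin entries are uncertain to that extent.

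After rounding, filterByExpr (by group) left 23107 transcripts, whose counts were scaled by TMM and modelled with 1 mean per group over 18 libraries. The fits used R 4.3.3 with edgeR 4.0.16 and limma 3.58.1. The 6 comparisons were tested with the quasi-likelihood F test, p-values were adjusted (Benjamini-Hochberg) over all tested transcripts, and calls were made at 0.05. Each standard error was taken as the absolute log2 fold change divided by the root of its F statistic. CPM are rounded reads over TMM-scaled library sizes. Ratios of Adam10l reads, other than SEN over PRO, carry exact binomial intervals (95%), which cover counting error only. Alternatives were RLE scaling, DESeq2 1.42.0, no filter, only the 2 groups compared, a replicate block, leaving out each library in turn, and limma on TPM with a pseudocount of 1 or 0.1 before log2. Replicate numbers recur in all groups of the labels, which do not say what they mark. In 2 comparisons every same-numbered pair correlated over 0.1 in its deviations from the group means, at 0.134 to 0.607 for MT_0.25%_SEN_CM with MT_0.25% and 0.391 to 0.463 for SEN with PRO (3 pairs each), and a block fit within those groups was added after seeing the data. In the other 5 comparisons at least 1 pair fell below 0.1. The edgeR fit was also run on simulated counts in which far fewer transcripts changed than in these data. That run therefore does not show the accuracy of the fit here. Depth per library (20609828 to 62991718 reads) sets the precision of low transcripts.

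Names were joined to identifiers by matching the normalized counts of the study's supplementary table to those computed from the deposited counts, and all 124 named rows matched. Transcripts were named by a rule, namely the 4 metalloproteases, up to 6 called transcripts of the list per comparison with the largest fold change plus the 3 Timp1 entries, and 3 most alike transcripts per metalloprotease among those with a mean count of at least 50. The 4 transcripts, the lists and the tests were chosen with earlier results of these data known. The counts over the list include 2 transcripts that are not reported here by name. Myotube and cycling markers were taken from the study's tables. No sequences of these transcripts are in the files used here, so none are shown.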

Additional observations from a re-analysis of the deposited data

How the results depend on the processing

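In the 6 tested comparisons 8.34% to 69.7% of all tested transcripts were called. The share of them that kept its call under every alternative was not computed. Of 18 tested results (3 MMPs in 6 comparisons) 11 were called, and 9 of the 11 kept direction and call under every alternative. The other two were Mmp3/10a in MT_0.25%_SEN_CM over MT_0.25% (log2 fold change 0.19 on log2(TPM + 1) and 0.42 on log2(TPM + 0.1), 0.81 to 1.66 leaving out a library) and Mmp3/10b in MT_0.25%_PRO_CM over MT_0.25% (-0.96 to -0.64). No called result changed sign. For MT_0.25%_SEN_CM over MT_0.25%_PRO_CM, DESeq2 called Mmp3/10a (1.05, and 0.47 to 1.32 leaving out a library). On the 2 TPM scales Mmp3/10a was 0.22 and 0.47 in this comparison and was not called. Mmp3/10b was -0.0021 with only the 2 groups, -0.25 and -0.29 on the 2 TPM scales, and -0.077 to 0.25 leaving out a library. Mmp9th was -0.17 and -0.18 on TPM. On the 2 TPM scales Mmp9th was -0.51 and -0.53 in MT_0.25%_SEN_CM and -0.34 and -0.36 in MT_0.25%_PRO_CM over MT_0.25% (-0.26 to 0.31 leaving out a library), and Mmp3/10a was -0.025 and -0.052 in MT_0.25%_PRO_CM over MT_0.25%. Adam10l, whose fitted values rest on fewer than 10 reads per library, was -0.020 and -0.14 on TPM in MT_0.25%_SEN_CM over MT_0.25% (-0.24 to 0.77 leaving out a library) and 0.00070 and 0.0094 in MT_10% over MT_0.25%_SEN_CM (-1.12 to 0.12). Adam10l was 0.50 on log2(TPM + 0.1) in MT_0.25% over PRO. Leaving out a library, it was -0.84 to 0.37 in MT_10% over MT_0.25% and -4.81 to -2.30 in MT_0.25%_PRO_CM over MT_0.25%. No test of Adam10l is read. Without a test, SEN over PRO was 3.85 for Mmp3/10a, 2.93 for Mmp9th and 0.62 for Adam10l on log2(TPM + 1). Relative to the median over all tested transcripts on the 2 TPM scales, Mmp9th was 0.04 and 0.35 in MT_0.25%_SEN_CM over MT_0.25%. In MT_0.25%_PRO_CM over MT_0.25%, Mmp9th was -0.04 and 0.11 and Mmp3/10a 0.28 and 0.42 by the same measure. Adam10l, at 0.552 TPM in SEN, lay below the pseudocount of 1. Its SEN over PRO was 2.60 on log2(TPM + 0.1) and 5.02 in edgeR. The cause of these differences was not tested.

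The TPM scale also moved the median log2 difference of all 23107 transcripts, by 0.55 in MT_0.25% over PRO, -0.16 in MT_10% over MT_0.25%, -0.43 in MT_0.25%_SEN_CM and -0.27 in MT_0.25%_PRO_CM over MT_0.25%, -0.23 between the conditioned media and 0.30 in MT_10% over MT_0.25%_SEN_CM with log2(TPM + 1), and relative to that median Mmp3/10a stood at 0.75 in MT_0.25%_SEN_CM over MT_0.25%. Of called transcripts, 89.1% were higher on log2(TPM + 1) in MT_0.25% over PRO (54.5% in edgeR), 27.6% in MT_10% over MT_0.25% (50.1%), 4.72% between the conditioned media (36.0%), 6.92% in MT_0.25%_SEN_CM over MT_0.25% (49.2%), 15.7% in MT_0.25%_PRO_CM over MT_0.25% (48.8%) and 84.5% in MT_10% over MT_0.25%_SEN_CM (55.3%). Called transcripts in MT_0.25%_SEN_CM over MT_0.25% numbered 8720 in edgeR, 14459 and 14290 on the 2 TPM scales, and 4679 to 8786 leaving out a library. Leaving out a library gave 3160 to 6754 in MT_0.25%_PRO_CM over MT_0.25% and 620 to 1818 between the conditioned media.

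The replicate block over all 18 libraries forces 1 effect per number on groups whose same-numbered libraries did not all deviate together. It changed 0 calls of the 3 MMPs, ended no call of the list but that of F8 between the conditioned media, gave 10 lower calls of the list where 9 were made in MT_0.25%_PRO_CM over MT_0.25%, and called 16012 transcripts in MT_0.25% over PRO. The block within MT_0.25%_SEN_CM and MT_0.25%, added after seeing the data, called Mmp9th (0.36), left the calls of Mmp3/10a (1.31) and Mmp3/10b (-0.72) as they were, and gave no value for Adam10l, which failed the filter there.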
